A study of Mus musculus with 6 samples.

Results

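The mouse genes whose symbol begins with Nduf were followed through 6 pools of gastrocnemius muscle. The symbol covers the nuclear-encoded subunits of respiratory complex I (NADH:ubiquinone oxidoreductase) and many of its assembly factors. Every gene with 1 platform symbol of that form was taken, and each was represented by the brightest of its probe sets by mean log2 signal over the arrays. This gave 44 genes with 88 probe sets, of 18193 genes in all. Of these, 34 were complex I subunits, 8 were assembly factors of the Ndufaf series, and Ndufa4 and its paralogue Ndufa4l2 were kept apart because Ndufa4 is now counted as a subunit of cytochrome c oxidase. A filter on mean signal was passed by 43 of the 44 genes and by 11526 genes in all. The exception was Ndufb4, whose probe set read between 25 and 52 in the pools. Ndufs6 and Ndufa11 were not analysed here, and 10 probe sets that carried an Nduf symbol together with another were left out.

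The animals were male C57BL/6J mice, placed on a diet at 6 weeks of age and kept on it for 15 weeks. The Control group ate a purified diet with 10 kcal% fat (D12450B). The HF group ate a high-fat diet with 60 kcal% fat (D12492), and the HF+SFC+ALA group ate that high-fat diet with an iron source, sodium ferrous citrate, at 0.023% by weight, and with 5-aminolevulinic acid phosphate at 0.2% by weight, the first committed precursor of heme. Mice of every diet were fasted for either 4 h or 24 h before sampling. RNA was pooled within each of the 6 combinations and each pool was hybridised to 1 array, so no combination had a replicate. How many animals made up a pool is not stated in what was used here, and the labelled age does not match the stated start age and feeding time.

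Complex I accepts electrons from NADH on a flavin, passes them along a chain of iron-sulfur clusters to ubiquinone, and couples this to proton pumping across the inner mitochondrial membrane. Its core subunits carry the catalytic centres and the pumps, the accessory subunits surround and stabilise them, and assembly factors build the enzyme in modules and then leave it. Muscle holds large amounts of the complex, most of all in oxidative fibres. Complex I contains iron-sulfur clusters and a flavin but no heme.

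The 6 arrays had been scaled to a common trimmed mean of 500.0. The ratio of the 3′ to the 5′ probe set of beta-actin, a sign of RNA integrity, lay between 1.08 and 1.52 and was highest in the HF 4 h pool. The same ratio for Gapdh lay between 0.81 and 0.86 and was 0.83 in the HF 4 h pool. As a check of the tissue label, the fibre genes Acta1, Ckm and Myh4 read between 37327 and 50008 in every pool. With 1 pool per combination, differences were estimated by limma in 1 additive model of fasting time and diet over all 6 pools. It left 2 residual degrees of freedom, and all p-values rest only on the spread between pools around that model. Each gene's variance was moderated toward that of genes of like signal, with 7.27 prior degrees of freedom. The spread around the model also holds any difference between diets in the change with fasting. Values are log2 differences ± SE. Fasting compared 3 pools with 3, and each diet comparison compared 2 pools with 2. Both diet comparisons share the HF pools.

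Promoter windows are shown for 3 members named in the results below. Ndufaf4 is the member that passed the test with fasting. Ndufs8 and Ndufs4, with Ndufs1, read higher in both HF+SFC+ALA pools than in both HF pools with the probe sets used. That order was held by 3 of 33 subunits, against 13.1% of all genes, and none of these subunits passed the test. No window was given for Ndufs1. The window of Ndufb1, the subunit with the widest range over the pools, held 0 matches to the searched motifs and is not shown. Each window shown runs from 250 bases before to 50 bases after the RefSeq transcript start (GRCm38.p6), 5′ to 3′ on the gene's strand, with matches to searched motifs in capitals.
Ndufaf4, chr4:24897833-24898132, plus strand, with NRF1 letters in capitals: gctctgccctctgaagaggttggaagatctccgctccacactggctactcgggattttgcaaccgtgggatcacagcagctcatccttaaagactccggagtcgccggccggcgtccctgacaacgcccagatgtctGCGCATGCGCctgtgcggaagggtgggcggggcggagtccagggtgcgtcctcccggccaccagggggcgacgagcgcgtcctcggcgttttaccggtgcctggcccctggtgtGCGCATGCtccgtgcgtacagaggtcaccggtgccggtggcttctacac
Ndufs8, chr19:3912725-3913024, minus strand, with ETS letters in capitals: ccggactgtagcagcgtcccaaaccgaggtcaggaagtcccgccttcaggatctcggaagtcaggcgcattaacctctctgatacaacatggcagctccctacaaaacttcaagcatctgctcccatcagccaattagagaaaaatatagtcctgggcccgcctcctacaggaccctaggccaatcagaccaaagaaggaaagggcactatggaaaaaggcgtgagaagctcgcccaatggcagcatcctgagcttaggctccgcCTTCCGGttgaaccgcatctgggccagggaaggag
Ndufs4, chr13:114388045-114388344, minus strand, with YY1 letters in capitals: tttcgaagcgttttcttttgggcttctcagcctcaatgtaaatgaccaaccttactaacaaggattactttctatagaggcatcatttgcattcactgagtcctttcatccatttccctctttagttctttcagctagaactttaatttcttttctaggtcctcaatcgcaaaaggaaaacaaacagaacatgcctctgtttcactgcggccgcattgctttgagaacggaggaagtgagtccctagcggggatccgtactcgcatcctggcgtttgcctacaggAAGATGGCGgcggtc
The Ndufaf4 window held the NRF1 letters at 3 positions, of which a forward and a reverse match overlapped upstream of the start and 1 lay 2 bases after it. The Ndufs8 window held the ETS letters in reverse 16 bases after the start, and the Ndufs4 window held the YY1 letters 36 bases after it.

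RefSeq promoter windows were matched for 39 of the 44 members, in 41 windows. GCATGCGC, the core of the site of NRF1, a regulator of nuclear genes for respiration, was in 9.76% of the members' windows and in 2.71% of all 32851 windows. It was found in Ndufa6, Ndufa8, Ndufaf4 and Ndufaf5. AAGATGGCG, the core of the YY1 site, was in 12.2% against 1.4%, in Ndufa9, Ndufaf8, Ndufc1, Ndufs4 and Ndufs7. CCGGAAG, an ETS-type site of the kind bound by GABPA (NRF2), was in 14.6% against 8.86%, in 6 genes. CAAGGTCA, an estrogen-related receptor (ERR) site, was in 2.44% against 1.56%, in Ndufs5. The longer ERR form TCAAGGTCA was in 0% against 0.423%, and it contains the shorter form. Both strands were searched. The members' windows were also richer in G and C, with a median of 59.7% against 52.7% over all windows, and in CpG, with a median observed over expected ratio of 0.828 against 0.384. A match describes letters in the window and is not a bound site, and no match says only that the letters are absent from these 300 bases.

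The complex I subunits held nearly constant signals across the 6 pools. The ratio of the highest to the lowest pool was 1.13 at the median of the 33 measured subunits, and 28 of them (84.8%) stayed under 1.2-fold. Over all 11526 genes tested the median ratio was 1.42 and 15.2% stayed under 1.2-fold. Bright genes in general varied less: among the 630 genes with a mean log2 signal over 13, which include 32 of the 33 subunits, the median was 1.18 and 60.8% stayed under 1.2-fold. The narrowest ratio was 1.07, for Ndufs3, and the widest 1.62, for Ndufb1, the measured subunit that is not among the bright genes. Ndufb1 was the only subunit at 1.5-fold or more (3.03%, against 40.2% of all genes and 7.14% of the bright genes). The 8 assembly factors had a median of 1.15, and 6 of them stayed under 1.2-fold.

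**Figure D1:**
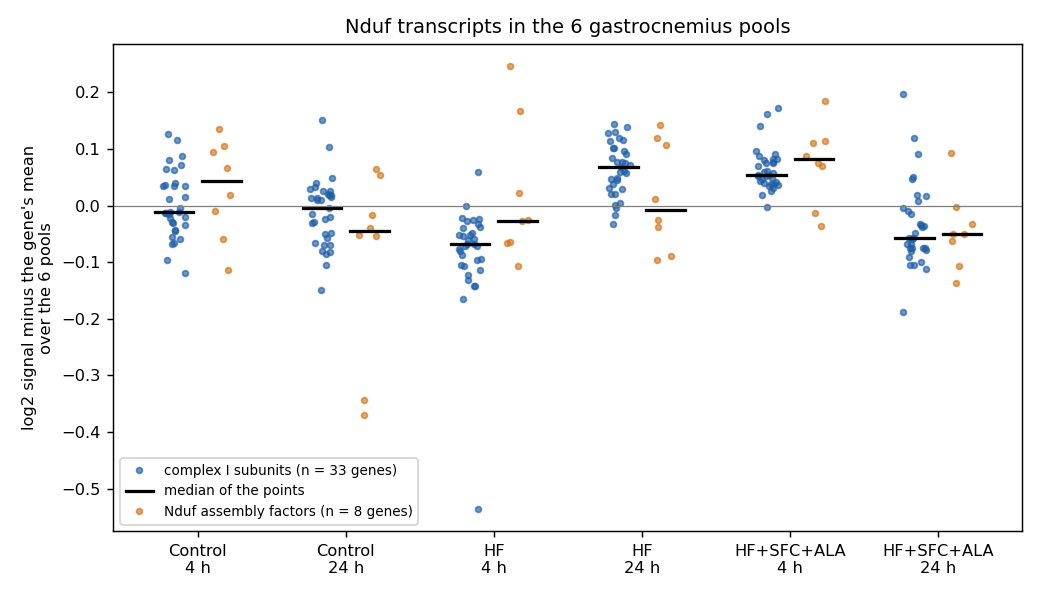
Log2 signal of each Nduf gene minus that gene's mean over the 6 pools (vertical axis) in each pool (horizontal axis), with 33 complex I subunits in blue, 8 assembly factors in orange and a bar at the median of the points. The subunit bars lie at -0.068 in HF 4 h and 0.069 in HF 24 h, and the lone blue point far below the others in HF 4 h is Ndufb1.

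Fasting for 24 h instead of 4 h changed 1 of the 43 members past an adjusted p of 0.05 by limma with Benjamini-Hochberg adjustment: the assembly factor Ndufaf4 fell. None of the 33 subunits passed, against 2.41% of all genes tested (172 higher and 106 lower). At an unadjusted p under 0.05, 2 members passed, Ndufaf4 and Ndufa4l2, against 17.7% of all genes. The median difference over the subunits was 0.0083, the same as over all genes, with 18 of 33 positive. Of the 33 subunits, 32 had a fitted difference smaller than 0.15 in size, and the 95% interval had a median half-width of 0.155, so that a shift of a few percent in a single subunit was not detectable here.

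Ndufaf4 acts with Ndufaf3 in building the ubiquinone-binding module. Its signals, given throughout in the order Control, HF, HF+SFC+ALA, were 2697, 2914 and 2792 after 4 h of fasting, and 1902, 2309 and 2283 after 24 h. Every 24 h pool was below every 4 h pool, a pattern that 8.36% of all genes tested also had. The difference was -0.38 ± 0.08 (95% interval -0.55 to -0.21, adjusted p = 0.041), a 1.30-fold lower signal, at -0.50 for Control, -0.34 for HF and -0.29 for HF+SFC+ALA. This call was near the threshold and was lost without any 1 of the 6 pools (adjusted p from 0.0553 to 0.158), with quantile normalization (0.0526), without the signal filter (0.335), without the trend in the variance prior (0.284), without diet in the model (0.143) and with arrays centred on muscle fibre markers (0.0511). The second probe set of Ndufaf4 read 2799, 2312 and 2831 after 4 h and 2101, 2395 and 2225 after 24 h. There the HF 24 h pool lay above the HF 4 h pool, the difference was -0.24, and the mean of both probe sets gave -0.31 (adjusted p = 0.193).

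The other assembly factors did not pass the test with fasting. Ndufaf3 and Ndufaf5, a hydroxylase that acts on Ndufs7, were the most positive, with at most 0.018. By the probe sets used, Ndufaf2, a late-acting chaperone related to Ndufa12, was next after Ndufaf4 on the negative side, at -0.09 ± 0.11. Ndufaf8 gave -0.07 with the probe set used. Its other, dimmer probe set read 548, 483 and 692 after 4 h and 440, 407 and 441 after 24 h, a difference of -0.40 that was not tested. Over the 8 factors the median was -0.056, with 2 positive. Among subunits the most positive were Ndufb1, Ndufv1, Ndufa10 and Ndufa1, and the most negative were Ndufb7 (-0.08 ± 0.08), Ndufb10, Ndufv3 and Ndufc1. Ndufb1, a small subunit of the membrane arm, read 594, 416 and 675 after 4 h and 670, 659 and 655 after 24 h. Its HF 4 h pool lay below the other 5, which gave 0.26 ± 0.14 with fasting (adjusted p = 0.376). No subunit had its 3 pools of 24 h all above those of 4 h, against 10.6% of all genes, and none had them all below.

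Ndufa4l2, which is known as a hypoxia-induced gene, read 346, 424 and 392 after 4 h and 259, 352 and 298 after 24 h. The 24 h pool was lower on every diet, although HF 24 h exceeded Control 4 h. The difference of -0.36 ± 0.13 did not pass (adjusted p = 0.189). Ndufa4, its paralogue in cytochrome c oxidase, read 27682, 25956 and 28524 after 4 h and 28560, 29765 and 27435 after 24 h, with a difference of 0.06. Its ranges at 4 h and 24 h overlapped.

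**Figure D2:**
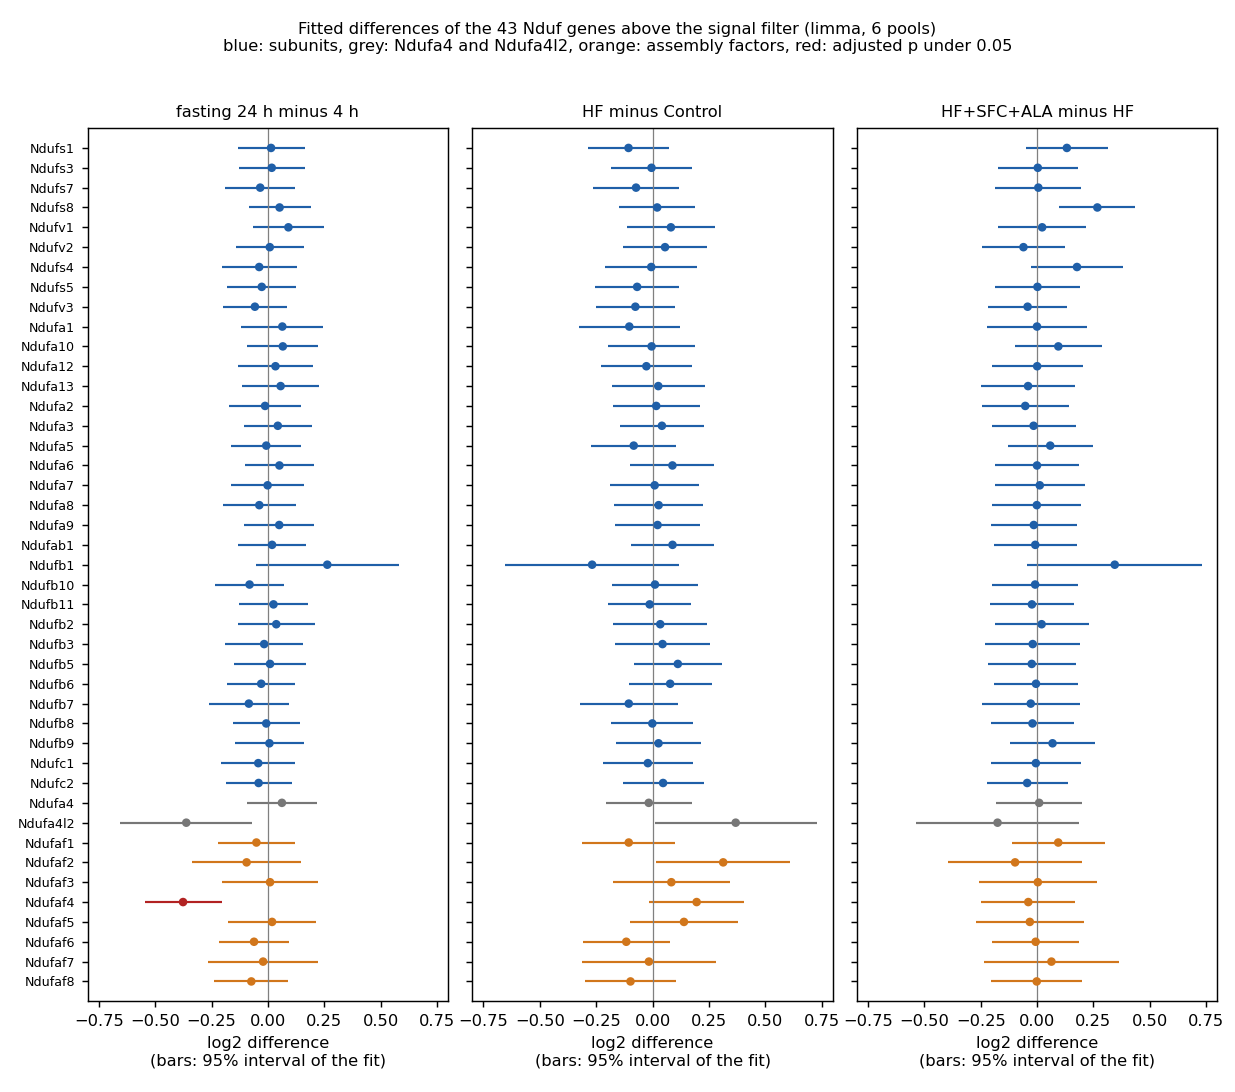
Fitted log2 differences (points) with their 95% intervals (bars) for the 43 measured Nduf genes in the fasting, HF minus Control and HF+SFC+ALA minus HF comparisons, by limma over 6 pools. Subunits are blue, Ndufa4 and Ndufa4l2 grey and assembly factors orange; Ndufaf4 with fasting, at -0.38, is the 1 red point with an adjusted p under 0.05.

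The high-fat diet was not accompanied by a called change in any member. For HF against Control, 0 of 43 members passed by limma, against 0.885% of all genes tested (65 higher and 37 lower). At an unadjusted p under 0.05, 2 members passed, Ndufaf2 and Ndufa4l2, against 14.7% of all genes. The median over the subunits was 0.011, with 18 of 33 positive and 32 under 0.15 in size. That median came from opposite signs at the fasting times: without the HF 4 h pool it was 0.0944 and without the HF 24 h pool it was -0.0967.

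The core subunits of the NADH-oxidising end overlapped between diets or differed little. Ndufv1, which binds NADH and the flavin, read 17884, 17399 and 19167 after 4 h and 17975, 20689 and 19373 after 24 h. HF lay below Control after 4 h and above it after 24 h, and the fitted difference was 0.08 ± 0.09. Ndufv2, an iron-sulfur subunit beside it, read 28885, 28645 and 29652 after 4 h and 28719, 31277 and 27786 after 24 h. Ndufs1, the large iron-sulfur subunit of this module, read 14441, 12777 and 14973 after 4 h and 14288, 13936 and 14280 after 24 h. Both HF pools of Ndufs1 lay below both Control pools, at -0.11 ± 0.08 (adjusted p = 0.572).

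The core subunits next to ubiquinone also differed little between HF and Control. Ndufs3 read 19620, 19036 and 20312 after 4 h and 19962, 20450 and 19250 after 24 h, and the diets overlapped. Ndufs7, which carries the last iron-sulfur cluster before ubiquinone, read 19582, 17803 and 19493 after 4 h and 19093, 18980 and 17467 after 24 h. Its HF pools lay just below its Control pools, and the difference of -0.07 did not pass. Ndufs8 differed by 0.021 between HF and Control.

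Of the accessory subunits, Ndufab1, the mitochondrial acyl carrier protein, read 18225, 18301 and 19477 after 4 h and 17890, 20150 and 18722 after 24 h. Both HF pools lay above both Control pools, by little after 4 h. Ndufab1 and Ndufb6 were the only subunits with that order, against 19.7% of all genes. The reverse order was held by 4 subunits, Ndufb7, Ndufs1, Ndufs7 and Ndufv3, against 18.9% of all genes. Ndufb5 had the most positive difference, 0.11 ± 0.09, and Ndufb1 the most negative, -0.27 ± 0.17 (adjusted p = 0.507), which came from its HF 4 h pool.

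Among assembly factors, Ndufaf2 read 860, 972 and 858 after 4 h and 683, 933 and 924 after 24 h. Both HF pools exceeded both Control pools, with a difference of 0.31 ± 0.13 (adjusted p = 0.319), and its value was 0.14 without the Control 24 h pool and 0.49 without the Control 4 h pool. Ndufaf5 had the same order of pools. Ndufaf1, which takes part in assembling the membrane arm, read 2854, 2482 and 2840 after 4 h and 2641, 2624 and 2611 after 24 h. Its HF pools both lay below its Control pools, as did those of Ndufaf6 and Ndufaf8. Ndufa4l2 was higher in HF by 0.37 ± 0.16 (adjusted p = 0.332), and its HF pools lay above its Control pools. Of the 8 assembly factors, 2 had both HF pools above both Control pools and 3 had both below, against 19.7% and 18.9% of all genes.

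Adding sodium ferrous citrate and 5-aminolevulinic acid to the high-fat diet gave no called gene at all: by limma 0 of 43 members and 0% of all genes passed. At an unadjusted p under 0.05, 1 member passed, Ndufs8, against 5.08% of all genes. The median over the subunits was -0.0012, with 14 of 33 positive and 30 under 0.15 in size. Without the HF 4 h pool the median was -0.0985 and without the HF 24 h pool it was 0.1004. The interval half-width was 0.19 at the median and 0.387 at its widest.

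Ndufs8, an iron-sulfur subunit close to the ubiquinone site, read 20441, 20274 and 25031 after 4 h and 20913, 21698 and 25458 after 24 h. Both HF+SFC+ALA pools stood above the other 4. The difference from HF was 0.27 ± 0.07 (unadjusted p = 0.00572, adjusted p = 0.669), with 0.30 after 4 h and 0.23 after 24 h. The 5 other probe sets of Ndufs8 lay higher in HF+SFC+ALA than in HF after 4 h, by 0.086 to 0.60, and lower after 24 h, by -0.49 to -0.039. The mean over its probe sets gave 0.056. The higher signal in both HF+SFC+ALA pools was therefore seen with 1 of 6 probe sets.

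Ndufs4, an accessory subunit whose loss causes severe complex I deficiency, read 10514, 9402 and 11281 after 4 h and 9224, 10235 and 10902 after 24 h. Its HF+SFC+ALA pools exceeded its HF pools, at 0.18 ± 0.09 (adjusted p = 0.97). Ndufs1 had the same order, at 0.13 ± 0.08. These 3 subunits, Ndufs1, Ndufs4 and Ndufs8, were the ones whose HF+SFC+ALA pools both lay above both HF pools, against 13.1% of all genes. No subunit had the reverse order, against 15.8% of all genes, and Ndufaf2 was the only assembly factor that did. A further probe set of Ndufs4 gave a difference of -0.22, the opposite sign.

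The most positive difference was that of Ndufb1, 0.34 ± 0.17 (adjusted p = 0.97), which was 0.045 without the HF 4 h pool. The most negative subunits were Ndufv2 (-0.06 ± 0.08), Ndufa2, Ndufc2 and Ndufv3. Among assembly factors Ndufaf1 (0.09 ± 0.09) and Ndufaf7, a methyltransferase, were highest, and Ndufaf2 (-0.10 ± 0.13) and Ndufaf4 were lowest. Ndufa4 differed by 0.0092, and Ndufa4l2 by -0.18 ± 0.16.

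**Figure D3:**
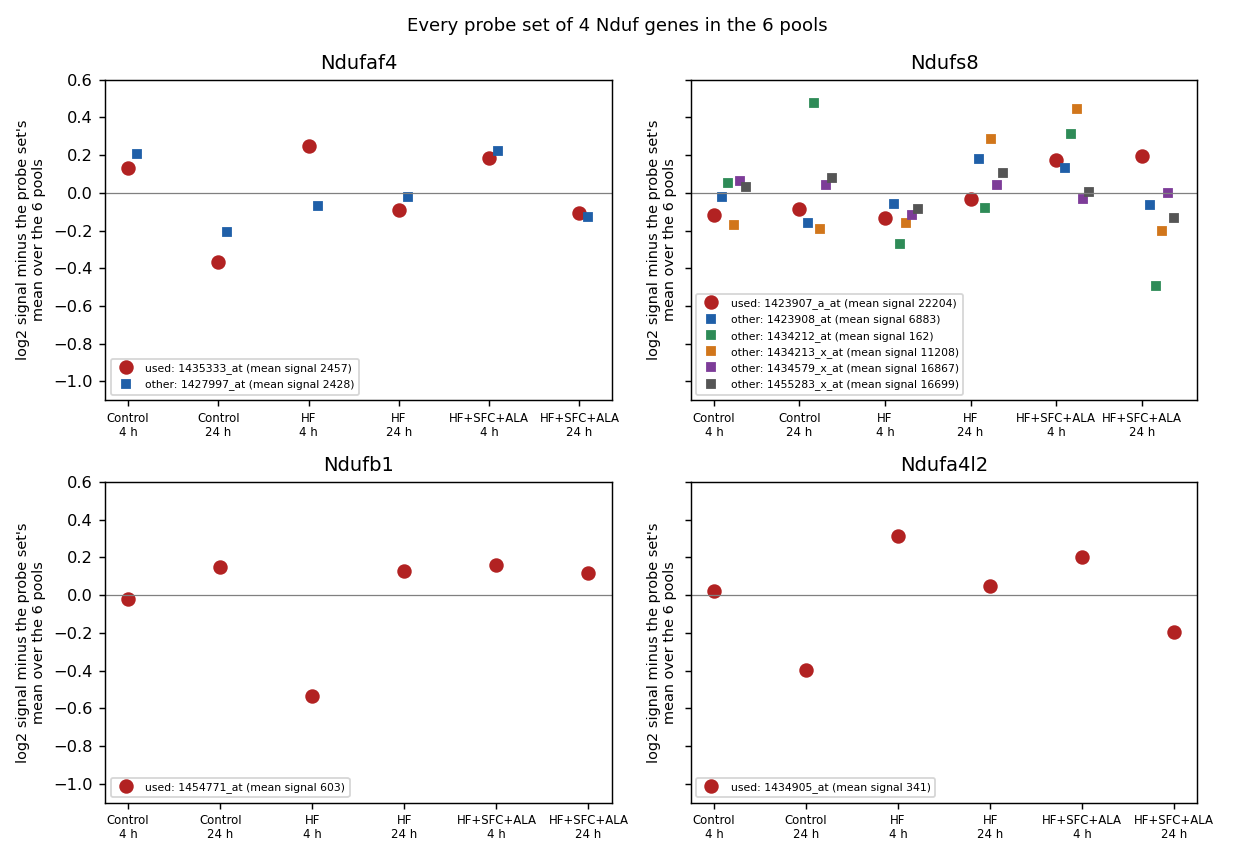
Log2 signal of every probe set of Ndufaf4, Ndufs8, Ndufb1 and Ndufa4l2 minus the probe set's own mean (vertical axis) in the 6 pools (horizontal axis), with the probe set used as a red circle and the others as squares. The red circles of Ndufs8 are highest in both HF+SFC+ALA pools, while its squares in HF+SFC+ALA 24 h lie below those in HF 24 h, and the HF 4 h pool of Ndufb1 lies below its other 5.

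Although single subunits differed little, many of them differed in the same direction between single pools. With 1 pool on each side these pair differences have no test. In HF, 32 of 33 subunits were higher after 24 h than after 4 h, with a median of 0.13, against 53.3% of all genes. Ndufb6 was the exception. In HF+SFC+ALA, 2 of 33, Ndufs8 and Ndufv1, were higher after 24 h, with a median of -0.098, against 49.9% of all genes. In Control, 17 of 33 were higher after 24 h, with a median of 0.0027, against 50.6% of all genes. Of the 630 bright genes, 62.2% were higher after 24 h in HF, 31.9% in HF+SFC+ALA and 56.5% in Control.

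The diets contrasted in the same way. After 4 h, 4 of 33 subunits were higher in HF than in Control, with a median of -0.075, against 48.2% of all genes. After 24 h, 27 of 33 were higher in HF, with a median of 0.055, against 50.6% of all genes. Against the HF pools, HF+SFC+ALA was higher in 33 of 33 subunits after 4 h, with a median of 0.13, against 50.2% of all genes. After 24 h it was higher in 3 of 33, Ndufs1, Ndufs4 and Ndufs8, with a median of -0.12, against 47.2% of all genes. Of the 630 bright genes, 36.8% were higher in HF than in Control after 4 h and 51.7% after 24 h. Higher in HF+SFC+ALA than in HF were 64.3% of them after 4 h and 34.4% after 24 h. These pairs share pools with each other, so the counts are not separate observations.

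**Figure D4:**
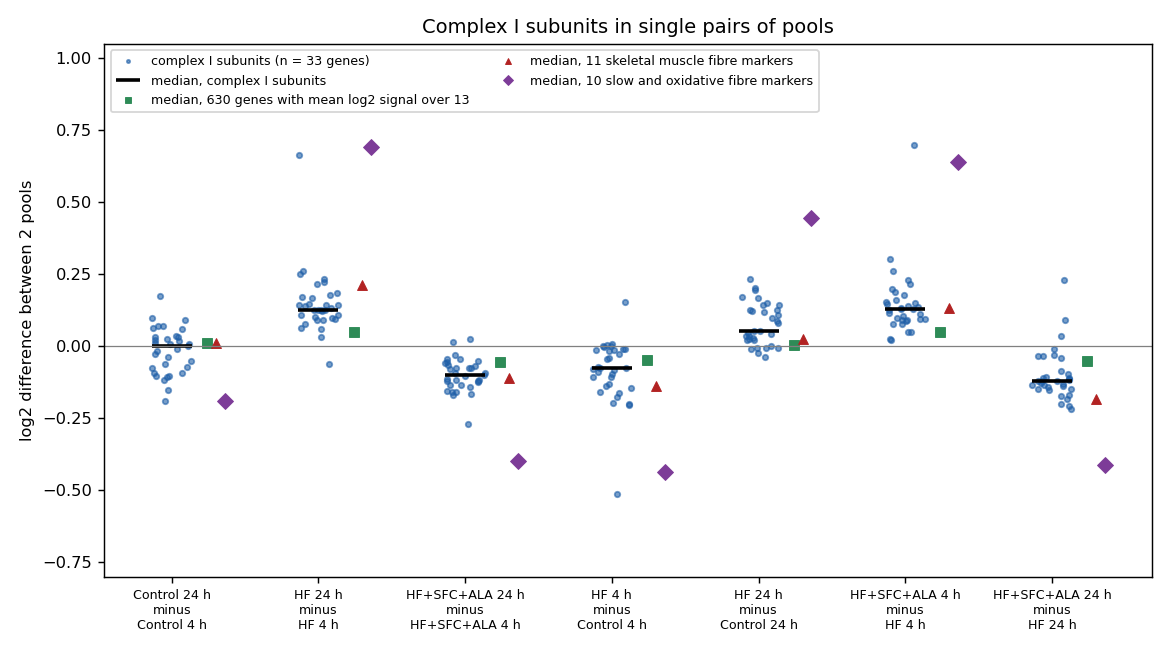
Log2 difference of each of 33 complex I subunits (blue) between single pools (vertical axis) for 7 pairs of pools (horizontal axis), with the subunit median as a bar and the medians of 630 bright genes, 11 muscle fibre markers and 10 slow fibre markers as a square, a triangle and a diamond. The bar lies at 0.13 for HF 24 h minus HF 4 h and at -0.12 for HF+SFC+ALA 24 h minus HF 24 h, and the other symbols lie on the same side in both pairs.

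The same order showed in the pools themselves. HF 4 h was the lowest pool for 14 of 33 subunits and the highest for 0, and HF+SFC+ALA 24 h was the lowest for 10 and the highest for 1. Among the 630 bright genes, HF 4 h was the lowest pool for 28.1% and HF+SFC+ALA 24 h for 24.4%. Over all genes tested these shares were 18.5% and 15.7%. Low signals in these 2 pools were therefore not particular to the subunits. HF 24 h was the highest pool for 16 subunits and HF+SFC+ALA 4 h for 10, and neither was the lowest for any. Relative to each gene's own mean, the median subunit stood at -0.068 in HF 4 h and -0.058 in HF+SFC+ALA 24 h, and at 0.069 in HF 24 h and 0.054 in HF+SFC+ALA 4 h. Ndufa1, a small subunit needed to join the arms of the enzyme, is an example. It read 28367, 24719 and 28408 after 4 h and 29785, 29635 and 25773 after 24 h, so that HF 4 h and HF+SFC+ALA 24 h were its lowest pools.

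The order held in the accessory subunits of each series. All 12 Ndufa and Ndufab1 subunits were higher in HF 24 h than in HF 4 h (0.091 to 0.26), all 12 were higher in HF+SFC+ALA 4 h than in HF 4 h (0.076 to 0.22), and none was higher in HF+SFC+ALA 24 h than in HF 24 h (-0.21 to -0.029). Ndufa13, also known as GRIM-19, read 26515, 25171 and 27476 after 4 h and 27129, 29615 and 25663 after 24 h. Its HF signal went from the lowest of the 6 pools after 4 h to the highest after 24 h. Ndufa10 read 19808, 18379 and 21372 after 4 h and 19944, 21374 and 20944 after 24 h, and HF 4 h was again its lowest pool.

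Of the 10 measured Ndufb subunits, which sit in the membrane arm, 9 were higher in HF 24 h than in HF 4 h, and all 10 were lower in HF+SFC+ALA 24 h than in HF 24 h. Ndufb7 read 17425, 15113 and 16897 after 4 h and 16348, 16290 and 14013 after 24 h, with the same low pools as Ndufa1. Ndufb5 read 24898, 24719 and 26366 after 4 h and 23610, 27793 and 25219 after 24 h, and was highest in HF 24 h. Ndufb6 read 18215, 20285 and 20613 after 4 h and 19408, 19425 and 18989 after 24 h. It departed from the rest in that its HF 4 h pool was among its high ones. Ndufb10 read 19239, 17996 and 19280 after 4 h and 17310, 18790 and 17329 after 24 h, a range of 1.11-fold.

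Ndufc1 and Ndufc2, small membrane-arm subunits, followed the same signs. Ndufc1 read 38818, 35472 and 39014 after 4 h and 36380, 38690 and 34915 after 24 h. Ndufs5 and Ndufv3, accessory subunits despite their core-like names, had Control 4 h as their highest pool and HF+SFC+ALA 24 h as their lowest. Ndufs5 read 19400, 17399 and 18836 after 4 h and 18475, 18742 and 17350 after 24 h. Ndufv3 read 19239, 17406 and 17719 after 4 h and 17904, 17811 and 16505 after 24 h. All 6 measured nuclear core subunits were lower in HF 4 h than in Control 4 h (-0.18 to -0.012) and higher in HF 24 h than in HF 4 h (0.092 to 0.25).

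The probe sets not used for these counts gave a like order. Of the 44 probe sets not used, 5 fell below the signal filter. Of the other 39, from 22 members, 29 were higher in HF 24 h than in HF 4 h, 4 in HF+SFC+ALA 24 h than in HF+SFC+ALA 4 h, 32 in HF+SFC+ALA 4 h than in HF 4 h, and 4 in HF+SFC+ALA 24 h than in HF 24 h. They were hybridised with the same RNA and are not independent of the first set. Of the 8 assembly factors, 4 were higher in HF 24 h than in HF 4 h, 1 in HF+SFC+ALA 24 h than in HF+SFC+ALA 4 h, 5 in HF+SFC+ALA 4 h than in HF 4 h, and 1 in HF+SFC+ALA 24 h than in HF 24 h.

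Other genes moved between the same pools. The 630 genes with the brightest signals had medians of the same sign, 0.05 from HF 4 h to HF 24 h, 0.05 from HF 4 h to HF+SFC+ALA 4 h and -0.05 from HF 24 h to HF+SFC+ALA 24 h, and HF 4 h was the lowest pool for 28.1% of them. All 11 muscle fibre markers were higher in HF 24 h than in HF 4 h, with a median of 0.21, and 0 of 11 were higher in HF+SFC+ALA 24 h than in HF 24 h, with a median of -0.18. The 10 slow and oxidative fibre genes had wider differences, with medians of 0.69 from HF 4 h to HF 24 h, 0.64 from HF 4 h to HF+SFC+ALA 4 h and -0.41 from HF 24 h to HF+SFC+ALA 24 h. Myh7, the slow myosin heavy chain, read 8784, 6100 and 9992 after 4 h and 7813, 10109 and 6716 after 24 h, with the same 2 low pools as Ndufa1. The summed signal of the slow fibre genes ranged from 107470 in HF 4 h to 157427 in HF 24 h. That of the 11 fibre markers ranged from 456190 to 530631 in the same pools, and no gene of either list was at the floor in all pools. Of 9 measured adipocyte markers, 5 were higher and 4 lower in HF than in Control, with a median of 0.29, and Adipoq, Lep and Cidec passed the test. The summed signal of the 9 was 60821, 65464 and 70650 after 4 h and 70877, 84104 and 72655 after 24 h. From HF 24 h to HF+SFC+ALA 24 h, 7 of the 9 were lower and 2 higher, with a median of -0.18. From HF 4 h to HF 24 h, 4 were higher and 5 lower, with a median of -0.12. Of 11 macrophage markers, 10 were higher in HF 24 h than in HF 4 h, with a median of 0.28. In HF+SFC+ALA 24 h 0 of these 11 were higher than in HF 24 h, with a median of -0.48. From HF 4 h to HF 24 h, 3 of 7 fibroblast and matrix markers and 1 of 5 smooth muscle markers were higher, with medians of -0.13 and -0.42. From HF 24 h to HF+SFC+ALA 24 h, 0 of either list were higher. In HF against Control, 4 of the 7 matrix markers and 3 of 6 tendon markers passed the test, all higher in HF, against 0.885% of all genes. The part of fibre makeup, other cells or RNA quality in the subunit differences was not tested, and in bulk muscle fewer cells of a type and less RNA per cell cannot be told apart.

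The direction of the pair differences depended on the scaling. With arrays centred on the 11 muscle fibre markers the subunit median turned to -0.074 from HF 4 h to HF 24 h (6 of 33 higher), to 0.06 from Control 4 h to HF 4 h (24 of 33) and to 0.04 from HF 24 h to HF+SFC+ALA 24 h (27 of 33). It stayed positive, at 0.019, from HF 4 h to HF+SFC+ALA 4 h (20 of 33), and negative, at -0.03, from HF+SFC+ALA 4 h to HF+SFC+ALA 24 h (9 of 33). With quantile normalization the median from Control 4 h to Control 24 h, near 0 before, was -0.023 (10 of 33). That from Control 4 h to HF 4 h kept its sign at -0.023 (11 of 33). The median was 0.069 from HF 4 h to HF 24 h, 0.067 from HF 4 h to HF+SFC+ALA 4 h and -0.059 from HF 24 h to HF+SFC+ALA 24 h, with the same signs as before. Outside the Control fasting pair, signs were also kept with arrays centred on the median of genes kept or on bright genes, and with cyclic loess. From HF 4 h to HF 24 h these gave 0.092 (31 of 33), 0.1025 (32 of 33) and 0.1143 (32 of 33).

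The rest of the respiratory chain and related lists also had few called genes. With fasting, unlike the members (2 of 43), they did not have a low share at an unadjusted p under 0.05. The 119 measured genes covered ND5, complexes II to V, their assembly and the complex I assembly factors not named Nduf. They also covered the citrate cycle, iron-sulfur cluster supply and mitochondrial biogenesis. Of the 119, 1 passed the test with fasting and 0 passed in either diet comparison. Over all genes 2.41% passed with fasting, 0.885% in HF against Control and 0% in HF+SFC+ALA against HF. At an unadjusted p under 0.05 there were 24 with fasting, 10 in HF against Control and 3 in HF+SFC+ALA against HF, which is 20.2%, 8.4% and 2.52% of these genes against 17.7%, 14.7% and 5.08% of all genes. None of the 8 genes of complex II, 14 of complex III, 14 of complex IV and 15 of ATP synthase passed. Their medians carried the sign of complex I in the pairs with wide counts: from HF 4 h to HF 24 h they were 0.16, 0.15, 0.16 and 0.14, and from HF 24 h to HF+SFC+ALA 24 h -0.15, -0.11, -0.19 and -0.13. Complexes II, III and IV contain heme, and in HF+SFC+ALA against HF 0 of their genes passed, against 0% of all genes.

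The gene that passed was Ppargc1a, which encodes PGC-1alpha, a coactivator of mitochondrial biogenesis. It read 2992, 2515 and 2314 after 4 h and 978, 1798 and 1239 after 24 h. Every 24 h pool was below every 4 h pool, and the difference was -0.9995 ± 0.17 (adjusted p = 0.0212). The complex I subunits had a median of 0.0083 in the same comparison. Among factors that its coactivation is known to serve, Esrra differed by -0.32 ± 0.08 (adjusted p = 0.0696), Gabpa by 0.20 ± 0.08 and Nrf1 by 0.12 ± 0.20.

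Of 12 complex I assembly factors not named Nduf, 0 passed in any comparison, with 3, 1 and 0 at an unadjusted p under 0.05, where all genes had 17.7%, 14.7% and 5.08%. With fasting Tmem126b, which works with Ndufaf1, differed by -0.38 ± 0.13 (adjusted p = 0.179) and Nubpl, which delivers iron-sulfur clusters to complex I, by 0.22 ± 0.09 (adjusted p = 0.252). In HF+SFC+ALA against HF 10 of 12 were positive, with a median of 0.092. The 16 complex IV assembly genes had a median of -0.13 with fasting, with 2 positive and 8 at an unadjusted p under 0.05, against 17.7% of all genes. Of the mitochondrially encoded ND subunits, the proton-pumping core, only ND5 was listed here, and it read 45350, 41522 and 47594 after 4 h and 44651, 62278 and 44846 after 24 h. HF 24 h stood above the other 5 pools.

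**Figure D5:**
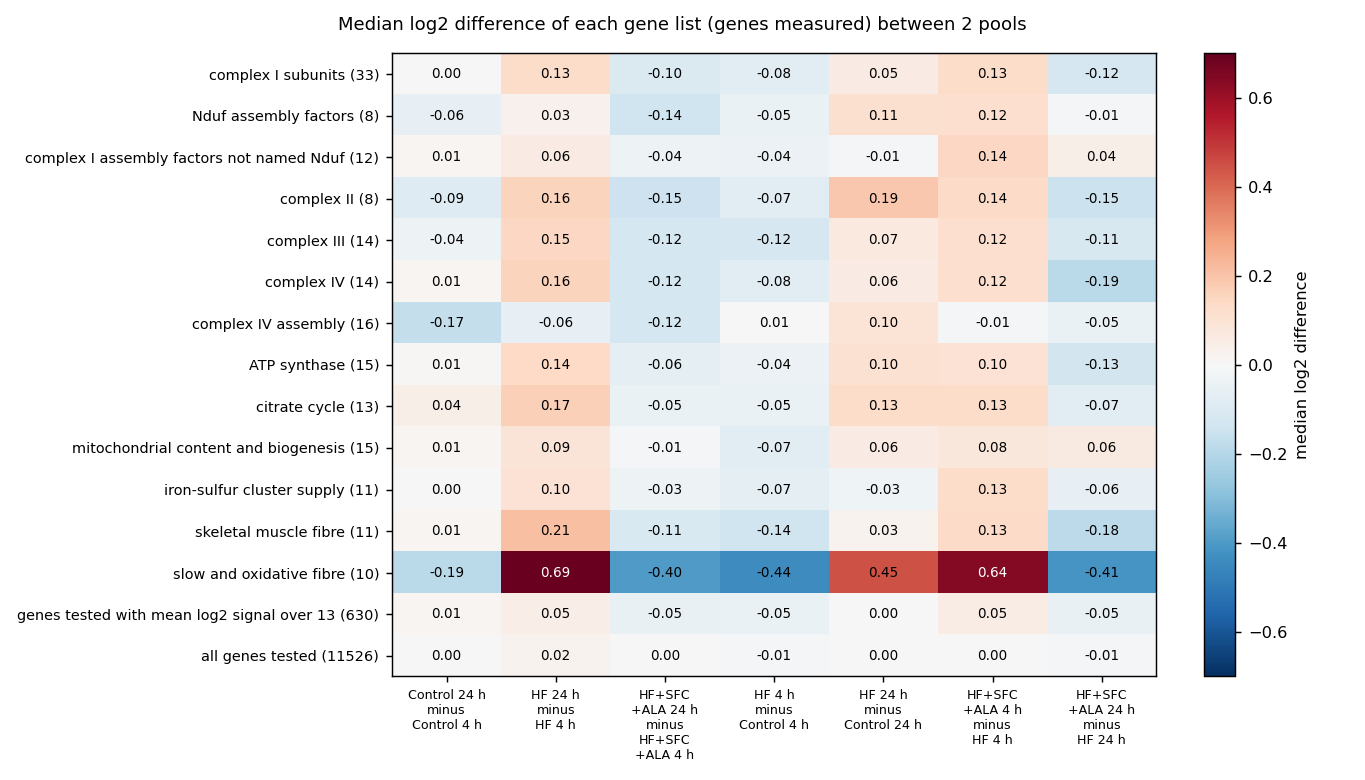
Median log2 difference (colour and printed value) of each gene list (vertical axis, with the number of genes measured) for 7 pairs of pools (horizontal axis). Complexes I to IV and ATP synthase are positive from HF 4 h to HF 24 h and negative from HF 24 h to HF+SFC+ALA 24 h, with medians of 0.13 and -0.12 for complex I, and of the lists drawn the slow fibre list has the widest values in these pairs, 0.69 and -0.41.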

How the data were processed

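Total RNA of gastrocnemius was pooled by group and labelled for 3′ expression arrays, per the labels. The deposited values are probe set signal intensities on a linear scale, computed by the authors with MAS5 per the submitters' processing notes. No version or setting of MAS5 was among the sources read. Of 45101 probe sets, 64 controls were left out, and 34945 of the rest had 1 gene symbol, 932 several and 9160 none listed. Symbols were updated through the RefSeq gene table for 34741 probe sets.

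The brightest probe set by mean log2 signal stood for its gene. Signals under the 30th percentile (26.4) were raised to it, and genes with a mean log2 signal of 5.88 or more, the 50th percentile of probe sets, were tested with R 4.3.3 and limma 3.58.1 (log2 signal on fasting time and diet over 6 pools, eBayes with trend, 2 residual and 7.27 prior degrees of freedom) with Benjamini-Hochberg adjustment over 11526 genes. The fit was tested on simulated data. Figures and promoter searches used Python 3.11.15.

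The text names members called, the 4 subunits and 2 assembly factors with the highest and lowest differences in each comparison, and a list of core and other members. Members and lists were chosen with earlier results of these data known. Alternatives in scaling, filter, floor, probe set choice and variance prior, and leaving out each pool, were run. Depth does not apply to arrays, and precision is limited by how few arrays there are.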

Additional observations from a re-analysis of the deposited data

Results flagged for a closer look

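The median complex I subunit was 0.128 higher in log2 signal in HF+SFC+ALA than in HF after 4 h of fasting and -0.12 after 24 h. It appears here because the pools at the 2 fasting times moved in opposite directions, and the difference was not tested. Ndufa1 did the same, at 0.2007 after 4 h and -0.2014 after 24 h, and the difference was not tested. The median subunit also moved in opposite directions with fasting on these diets, at 0.127 in HF and -0.0985 in HF+SFC+ALA, and the difference was not tested. With arrays centred on muscle fibre markers neither pair of medians had opposite signs: the supplement gave 0.0189 after 4 h and 0.0399 after 24 h, and fasting gave -0.0739 in HF and -0.0303 in HF+SFC+ALA. All 3 results rest on single pools and share the HF pools or the HF+SFC+ALA pools.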

How the results depend on the processing

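The 1 member called with fasting, Ndufaf4, gave a count of 0 with quantile normalization, without the filter, with the mean over probe sets, with eBayes without a trend, without the other factor in the model, with arrays centred on muscle fibre markers, and without each of the 6 pools (0 to 0). Under the other 7 alternatives the count was 1. In HF against Control and in HF+SFC+ALA against HF the count of members called was 0 under all 19 alternatives. Without 1 pool each, the median over the subunits ranged from -0.0502 to 0.0561 with fasting, from -0.0967 to 0.0944 in HF against Control, and from -0.0985 to 0.1004 in HF+SFC+ALA against HF. Of 1995 values of named members under an alternative, 0 reversed a called direction, 12 lost the call and 234 uncalled ones had the other sign. Centring on bright genes, centring on fibre markers and cyclic loess were chosen after seeing the data. The model set the 24 h against the 4 h pool within each diet. No further pairing by replicate number was made, since each combination has 1 pool. Without a pool, its lone partner is assumed to vary like the other groups. Small signals such as those of Ndufb4 limit what the arrays can show.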
